A study of Homo sapiens with 9 samples.

Results

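The zinc finger genes examined here are the protein-coding ZNF genes of human chromosome 19, followed in A549 cells during RSL3 treatment. Members were the protein-coding rows of chromosome 19 that carry a symbol of ZNF plus a number and reached at least 1 FPKM (fragments per kilobase of transcript, scaled to the depth of the library) in at least 3 of the 9 libraries. This gave 88 symbols in 74 loci, out of 220 symbols in 192 loci before the level filter and 43444 loci in the table. A549 is a human lung adenocarcinoma cell line, and all 9 libraries came from A549 cells treated for 24 h, 3 libraries per group. The groups were DMSO, the vehicle; RSL3 at 2 µM, a covalent inhibitor of the lipid peroxidase GPX4 that triggers ferroptosis; and RSL3 at 2 µM with 5 µM Fer-1 (ferrostatin-1), a radical-trapping inhibitor of ferroptosis, labelled R_F. No library held Fer-1 alone. Nothing in the labels tells separate cultures from repeat libraries of 1 culture, so the p-values measure the spread between these libraries only.

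Proteins of this family bind DNA through tandem zinc fingers, and most of those encoded on chromosome 19 also carry a KRAB domain. The KRAB domain recruits the corepressor TRIM28, which brings the histone methyltransferase SETDB1 and HP1 proteins and places a repressive methyl mark on histone H3. Many of these proteins silence retroelements. The genes arose by repeated tandem duplication, so neighbours in a cluster resemble each other in coding and promoter sequence.

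Promoter sequences are shown for 4 member genes of the cluster at 19.7 to 24.1 Mb, because that cluster held 5 of the 8 loci lower with RSL3. The windows are the RefSeq entries on GRCh38.p14, from 250 bases before to 50 bases after the gene start, printed 5′ to 3′ on the strand of the gene. Capitals mark TGGGCCTGGCT and TCCAATCAGG, the 2 stretches of at least 10 bases that all 5 called promoters of the cluster hold on the strand of the gene. They were derived from the called genes, so their presence in these promoters is no finding. The windows are chr19:21081953-21082252 on the plus strand for ZNF714, chr19:21141790-21142089 on the plus strand for ZNF431, chr19:24086937-24087236 on the plus strand for ZNF254 and chr19:19668589-19668888 on the plus strand for ZNF101, the 1 member of the cluster that was not called.
ZNF714: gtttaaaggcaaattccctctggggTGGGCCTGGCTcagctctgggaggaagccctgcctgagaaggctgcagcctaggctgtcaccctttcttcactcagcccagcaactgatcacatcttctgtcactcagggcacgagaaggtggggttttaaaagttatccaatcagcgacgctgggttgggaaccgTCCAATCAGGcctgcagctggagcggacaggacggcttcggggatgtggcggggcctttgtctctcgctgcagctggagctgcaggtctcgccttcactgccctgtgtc
ZNF431: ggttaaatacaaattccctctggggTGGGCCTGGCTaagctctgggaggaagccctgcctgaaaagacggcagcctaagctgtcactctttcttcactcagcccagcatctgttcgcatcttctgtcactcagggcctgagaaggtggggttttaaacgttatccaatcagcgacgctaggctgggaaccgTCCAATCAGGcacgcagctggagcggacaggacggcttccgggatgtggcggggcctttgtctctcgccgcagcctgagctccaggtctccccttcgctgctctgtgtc
ZNF254: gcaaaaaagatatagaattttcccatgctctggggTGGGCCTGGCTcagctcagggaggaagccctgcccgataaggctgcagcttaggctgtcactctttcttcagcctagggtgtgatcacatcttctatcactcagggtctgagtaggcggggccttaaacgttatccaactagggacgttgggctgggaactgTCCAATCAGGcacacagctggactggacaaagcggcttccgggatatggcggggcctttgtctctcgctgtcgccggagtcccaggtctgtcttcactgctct
ZNF101: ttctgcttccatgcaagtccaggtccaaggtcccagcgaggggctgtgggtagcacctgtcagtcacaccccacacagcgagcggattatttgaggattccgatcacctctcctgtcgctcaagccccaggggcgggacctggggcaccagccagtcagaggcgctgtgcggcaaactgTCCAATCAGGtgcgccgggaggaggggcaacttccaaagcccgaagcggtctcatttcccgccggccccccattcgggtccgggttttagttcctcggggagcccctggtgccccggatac
The first 3 promoters share long stretches beyond the marked ones. The ZNF101 promoter holds TCCAATCAGG, which includes the letters CCAAT of a common promoter element, and has no match to TGGGCCTGGCT on either strand. The longest stretch common to ZNF714 and ZNF431 was 28 bases, and that common to ZNF714 and ZNF254 was 25 bases. ZNF101 shared 10 to 15 bases with the other 5 members of its cluster. Over the 444 pairs of 1 member of the cluster and 1 member outside it, the median longest stretch was 8 bases and the highest 17.

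Searched on both strands, TGGGCCTGGCT was in 0.177% of the 35116 promoters of the RefSeq table and in 15 of the 195 chromosome 19 ZNF promoters there, and all 15 lay in the cluster at 19.7 to 24.1 Mb. Cluster genes with a match but below the level filter include ZNF91 and ZNF430, with log2 changes of -0.10 and -0.22 in the fit without the filter, neither of them called. TCCAATCAGG was in 0.347% of all promoters and in 40 of the 195, of which 24 lay in the cluster. It was in the promoters of 12 member loci. The 7 of these that were not called are ZNF77 (-0.58), ZNF101 (-0.07), ZNF627 (-0.02), ZNF823 (0.01), ZNF440 (-0.10), ZNF136 (0.07) and ZNF791 (-0.07). The core letters bound by ETS factors, CCGGAA on either strand, were in 44 of the 80 member promoters in the table (55.0%), in 54.8% of the promoters of chromosome 19 ZNF genes below the level filter and in 17.2% of all promoters. Of the 4 windows shown, those of ZNF431 and ZNF254 hold these letters once each and the other two do not. These matches describe the sequence windows only.

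The deposited table gives estimated counts and FPKM per locus, and libraries held 39143521 to 45855255 counts. The keratin genes KRT8 (76.1 to 88.4 FPKM) and KRT18 (139 to 163 FPKM) were expressed in every library. KRT19, AKR1B10 and AKR1C1 did not exceed 0.542, 0.279 and 1.42 FPKM, although AKR1B10 and AKR1C1 are known as abundant in A549, so 2 of the 5 epithelial or A549 markers measured stood at a high level. A further marker of the list, EPCAM, had no row under that symbol. The name A549 is that of the labels. PTPRC of blood cells and the endothelial genes PECAM1 and VWF stayed at or under 0.286, 0.213 and 0.031 FPKM. CD68 shares its locus with EIF4A1 and is uninformative. Both fibroblast collagen genes stood apart in DMSO replicates 1 and 2. COL1A1 was at 4.55 and 5.78 FPKM there and at 1.04 in DMSO replicate 3, and it was 0.846 to 1.08 in the other 6 libraries. COL3A1 was at 1.45 and 1.87 FPKM in the same libraries and at 0.0184 to 0.199 in the other 7. The part of this difference between DMSO libraries in the results was not tested, and counts are given below also without both libraries.

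Expression of the family was low to moderate. The mean FPKM of a member locus over the 9 libraries ran from 0.962 to 16.1, with a median of 2.00, beside a median of 2.29 FPKM in 150 ZNF loci of other chromosomes and 4.51 FPKM in 9583 protein-coding loci. ZNF121 was the highest at 16.1 FPKM. It was followed by the joined locus of ZNF264, ZNF460 and ZNF805 at 7.75 FPKM and by ZNF146, which encodes a protein made almost only of fingers, at 5.43 FPKM. Then came ZNF787 (4.81), the locus of ZNF586 and ZNF587 (4.63), ZNF317 (4.34), the locus of ZNF8 and ZNF544 (4.25), ZNF562 (4.15), ZNF260 (3.86) and ZNF561 (3.74 FPKM). The order between these neighbours is that of their means, and in single libraries it changes: ZNF317 ranged from 3.92 to 4.61 FPKM and ZNF561 from 3.43 to 4.17 FPKM. The 5 loci with most counts took 43.7% of all counts of the members.

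The level filter kept 61 member loci at 1 FPKM or more in all 9 libraries and 13 in 3 to 8 libraries. Just inside it stood ZNF616 with ZNF836, past 1 FPKM in 3 libraries, and just outside stood ZNF57 and ZNF527, past it in 2. ZNF44 and ZNF428 reached 1 FPKM in all 3 libraries in the DMSO group alone, and ZNF558, ZNF823, ZNF420 and ZNF160 in the RSL3 group alone. Of these 6 loci, ZNF44 was called in a comparison. The other 118 loci missed the filter, and 63 of them had a mean under 0.1 FPKM. ZNF91 and ZNF93, known repressors of SVA and L1 retroelements, were among them at means of 0.723 and 0.0126 FPKM.

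With RSL3 the members as a group were slightly lower than with DMSO, 8 loci fell and none rose. The summed level of the 74 loci was 2710, 2740 and 2700 CPM (counts scaled to a common library size, as edgeR computes them) with DMSO, 2530, 2540 and 2550 CPM with RSL3, and 2630, 2600 and 2600 CPM with RSL3 and Fer-1. The 3 groups did not overlap, and the libraries with both compounds lay between the others. Without the 5 loci with most counts the sums were 1530, 1530 and 1520 CPM with DMSO, 1450, 1450 and 1420 CPM with RSL3, and 1460, 1470 and 1450 CPM with both, so the order against DMSO did not rest on those loci, and the RSL3 and RSL3 plus Fer-1 libraries then met at 1450 CPM. Each locus counted equally, the mean log2 level relative to the DMSO mean was -0.057, -0.069 and -0.107 in the RSL3 libraries and -0.056, -0.037 and -0.059 in those with Fer-1. In such RNA from whole cultures, fewer cells of a type and less RNA per cell cannot be told apart.

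In edgeR's quasi-likelihood test over 17297 loci with Benjamini-Hochberg adjustment, 8 of the 74 member loci (10.8%) were lower with RSL3 and 0 were higher at an adjusted p under 0.05. The background was 16.5% of all loci called, 7.46% lower and 9.04% higher, and 24.9% of protein-coding loci were called. The share of members called was thus below the background. Called lower were 10.8% of the members, beside 11.2% of protein-coding loci, 10.7% of ZNF loci of other chromosomes and 5.02% of the other protein-coding loci of chromosome 19, so this share was near that of all protein-coding loci and of other ZNF loci. At an unadjusted p under 0.05 in edgeR, 14 member loci were lower and 1 higher, beside 4673 of the 17297 loci in either direction. DESeq2 called 10 member loci lower and 0 higher, beside 24.6% of 13268 loci called in either direction. The median log2 change of the members was -0.07 and 52 of 74 lay below 0, while the median was -0.01 over all loci tested, -0.03 over ZNF loci of other chromosomes and 0.05 over the 478 other protein-coding loci of chromosome 19. All 3 RSL3 libraries lay below all 3 DMSO libraries for 17 member loci (23.0%) and above them for 2 (2.7%), beside 14.9% and 15.8% of all loci. Besides the 8 called loci, the 17 were ZNF77, ZNF121, ZNF146, ZNF566, ZNF260, ZNF529, ZNF473, ZNF614 and ZNF766, and the 2 were ZNF175 and the locus of ZNF616 and ZNF836. ZNF77 passed the level filter through the other groups, since it was under 1 FPKM in every RSL3 library. With DMSO replicates 1 and 2 both left out, 0 member loci were called by edgeR against 8.11% of all loci, 10 were lower and 0 higher at an unadjusted p under 0.05, and the median was -0.08. That fit has a single DMSO library, assumed to vary like the other groups.

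**Figure D1:**
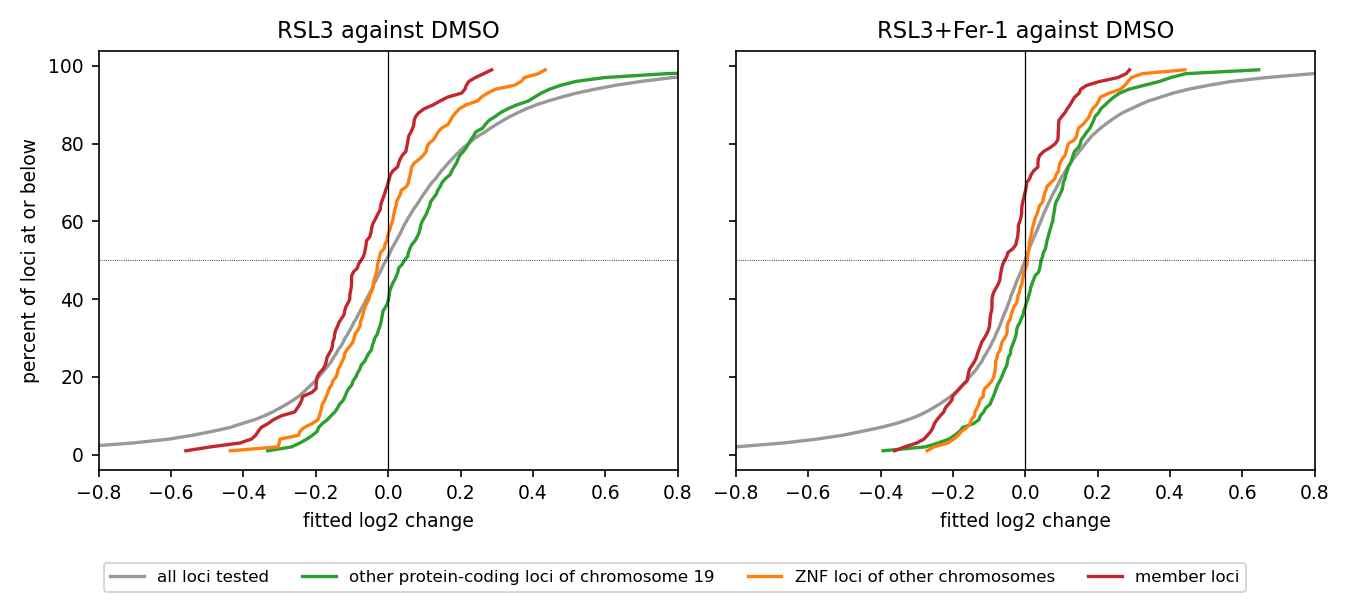
Cumulative percent of loci (y axis) at or below a fitted log2 change (x axis) for RSL3 against DMSO (left) and RSL3 with Fer-1 against DMSO (right). The curve of the 74 member loci crosses 50 percent at -0.07 and -0.06, left of the curves of all loci tested, of ZNF loci of other chromosomes and of other protein-coding loci of chromosome 19.

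The 8 called loci are ZNF44, ZNF714, ZNF431, ZNF708, ZNF675, ZNF254, the locus of ZNF264, ZNF460 and ZNF805, and that of ZNF586 and ZNF587. All 8 have at least 10 fingers by pattern, as have 54 of the 74 member loci, and 7 of the 8 have a KRAB pattern. A joined locus was given the highest finger count among its ZNF genes, and a KRAB pattern if any of them had it. ZNF586 by itself has 8 fingers. The finger pattern matched 12 times in the longest open reading frame of ZNF714, where no KRAB pattern was found. A gene without a match to the pattern may still encode a KRAB domain. Loci with a KRAB pattern had a median log2 change of -0.09 (54 loci, 7 lower), and those without it -0.05 (20 loci, 1 lower). Loci that join several gene names had a median of -0.12 (19 loci, 5 lower) and those with 1 name -0.06 (55 loci, 3 lower). The differences between these classes were not tested.

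ZNF708, at chr19:21291160-21329425, had the largest called change. It was at 8.94, 8.26 and 7.31 CPM with DMSO, 5.29, 6.14 and 5.28 CPM with RSL3, and 7.45, 6.16 and 5.54 CPM with RSL3 and Fer-1. All RSL3 libraries were below all DMSO libraries, and the Fer-1 libraries overlapped both groups. The log2 change with RSL3 was -0.55 ± 0.16 (SE, n = 3 per group; adjusted p = 0.0176 in edgeR's quasi-likelihood test), and it was -0.36 with both compounds against DMSO (adjusted p = 0.230). Without DMSO replicate 1, DMSO replicate 2, RSL3 replicate 1 or RSL3 replicate 3 the RSL3 change was -0.48, -0.55, -0.52 and -0.52, with adjusted p of 0.0877, 0.0541, 0.0648 and 0.0582.

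ZNF714 shares its locus with the pseudogene VN1R81P at chr19:21062613-21126680 and had the smallest adjusted p of the members. Its level was 46.4, 48.7 and 40.7 CPM with DMSO, 35.8, 34.4 and 31.3 CPM with RSL3, and 34.9, 38.7 and 40.5 CPM with both compounds. Every library with RSL3, alone or with Fer-1, was below every DMSO library. The log2 change was -0.42 ± 0.08 with RSL3 (SE, n = 3 per group; edgeR adjusted p = 0.000317) and -0.25 with both compounds against DMSO (adjusted p = 0.0530). DESeq2 called the latter (adjusted p = 0.0308), and so did edgeR with library totals alone (adjusted p = 0.0377). The call with RSL3 held without each single library, at an adjusted p of at most 0.00594, and was lost without DMSO replicates 1 and 2 together (-0.26, adjusted p = 0.161).

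ZNF431, joined to the pseudogene VN1R82P at chr19:21142024-21196053, was at 40.1, 42.0 and 40.5 CPM with DMSO, 34.2, 32.0 and 36.3 CPM with RSL3, and 35.7, 37.4 and 38.9 CPM with both compounds. The DMSO libraries were again the 3 highest. The log2 change with RSL3 was -0.26 ± 0.07 (SE; edgeR adjusted p = 0.0106). It was -0.24 without DMSO replicate 2 and -0.21 without RSL3 replicate 2, at adjusted p of 0.0544 and 0.0624.

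ZNF675, known as an inhibitor of TRAF6 signalling, lies at chr19:23525631-23687220. It was at 21.1, 18.4 and 17.7 CPM with DMSO, 14.6, 13.9 and 15.6 CPM with RSL3, and 18.2, 15.0 and 15.9 CPM with both compounds. The RSL3 libraries were below the DMSO libraries, and the libraries with Fer-1 overlapped both. The log2 change with RSL3 was -0.37 ± 0.11 (SE; edgeR adjusted p = 0.0182), and it was -0.29 without DMSO replicate 1 and -0.33 without RSL3 replicate 2, at adjusted p of 0.126 and 0.0811.

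ZNF254, joined to AC092279 at chr19:24033401-24129968, was the 1 member that the main edgeR fit called in both comparisons with DMSO, which share the DMSO libraries. It was at 135, 129 and 135 CPM with DMSO, 117, 121 and 120 CPM with RSL3, and 118, 117 and 122 CPM with both compounds. The 2 treated groups overlapped each other and lay below DMSO. The log2 change was -0.15 ± 0.04 with RSL3 (SE; edgeR adjusted p = 0.0108) and -0.16 ± 0.04 with both compounds (adjusted p = 0.0198). The RSL3 call was lost without DMSO replicate 1 or 3 (-0.14 each, adjusted p of 0.0516 and 0.0531). The other was lost without those libraries (-0.15 and -0.14) and without R_F replicate 1 or 2 (-0.15 and -0.14), with adjusted p of 0.0595 to 0.113.

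Outside that cluster, ZNF44 at chr19:12224686-12294887 was at 20.5, 19.1 and 18.5 CPM with DMSO, 16.7, 14.1 and 15.5 CPM with RSL3, and 20.8, 18.3 and 15.2 CPM with both compounds. Its log2 change of -0.33 ± 0.11 (SE) was close to the threshold (edgeR adjusted p = 0.0495). It was lost without DMSO replicate 1, 2 or 3 (-0.28, -0.34 and -0.36), without RSL3 replicate 2 or 3 (-0.27 and -0.33) and without R_F replicate 2 (-0.32), at adjusted p of 0.0637 to 0.197. It was also lost without the level filter, with unnamed loci kept and in a fit of single-gene loci alone. In limma, on log2(FPKM + 1) as on log2(FPKM + 0.1), ZNF44, ZNF431, ZNF708, ZNF675 and ZNF254 were not called and the other 3 loci were.

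The 2 remaining called loci join several genes near the end of the chromosome, so no value belongs to 1 gene, and near-identical paralogs may share reads. The locus of ZNF586 and ZNF587 at chr19:57769655-57869267 was at 236, 248 and 242 CPM with DMSO, 210, 222 and 223 CPM with RSL3, and 231, 238 and 233 CPM with both compounds. The log2 change with RSL3 was -0.15 ± 0.04 (SE; edgeR adjusted p = 0.00544), and the Fer-1 libraries lay above all RSL3 libraries (0.10, adjusted p = 0.122). The locus of ZNF264, ZNF460 and ZNF805 at chr19:57191486-57308562 was at 402, 413 and 410 CPM with DMSO, 370, 377 and 381 CPM with RSL3, and 396, 376 and 384 CPM with both compounds. Its log2 change with RSL3 was -0.12 ± 0.03 (SE; edgeR adjusted p = 0.0100). Both calls held without each single library and were lost without DMSO replicates 1 and 2 together (-0.14 and -0.12, adjusted p of 0.111 and 0.139).

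**Figure D2:**
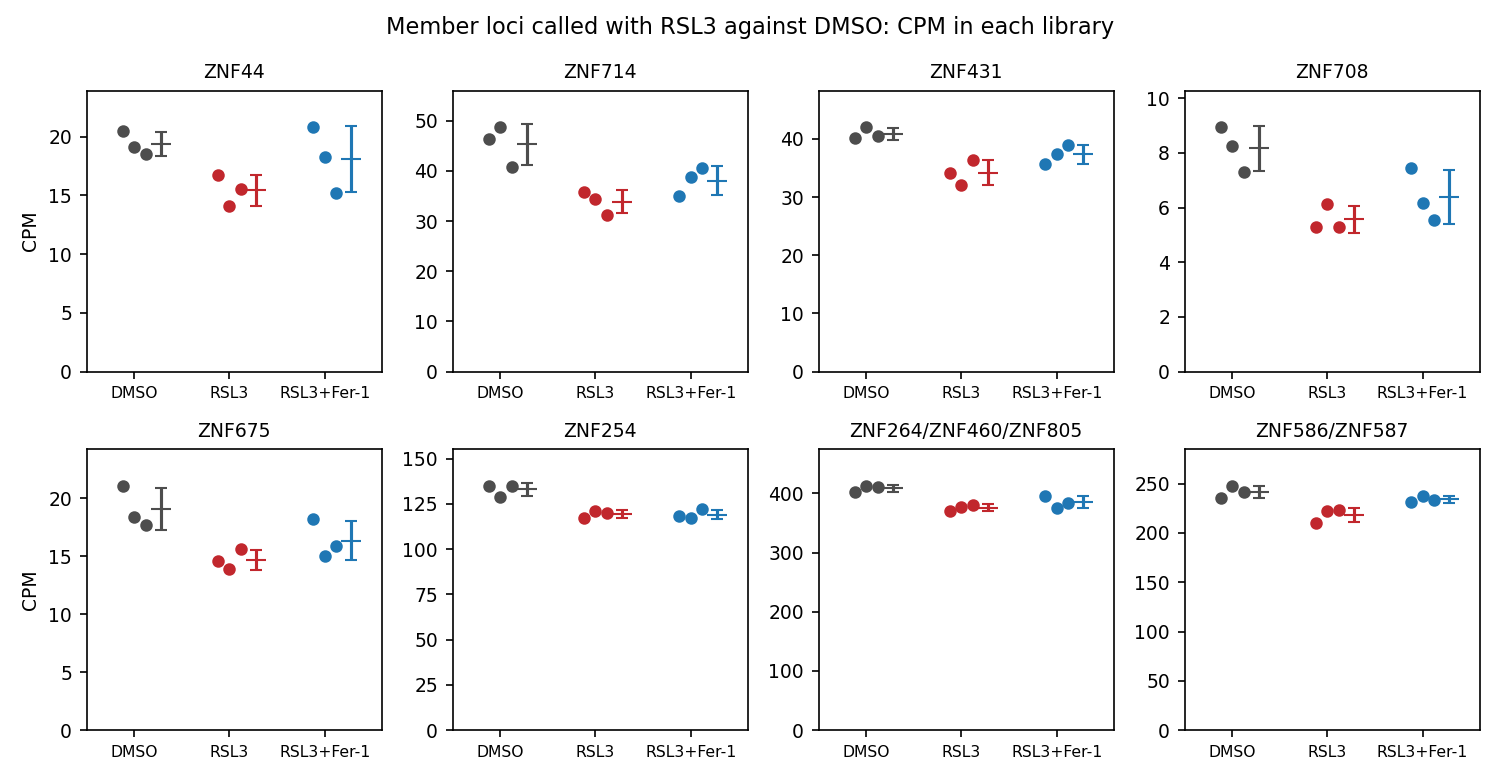
CPM (y axis, from 0) of the 8 member loci called with RSL3 against DMSO; each point is 1 library and each bar the mean ± SD of 3. In every panel the 3 RSL3 points sit below the 3 DMSO points, for example 5.28 to 6.14 CPM below 7.31 to 8.94 CPM for ZNF708.

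The other abundant members and those with known roles were not called in the main edgeR fit. ZNF121 was at 158, 169 and 152 CPM with DMSO and 144, 151 and 148 CPM with RSL3, without overlap (log2 change -0.12, edgeR adjusted p = 0.0681). ZNF146 was at 122, 123 and 120 CPM with DMSO and 116, 112 and 111 CPM with RSL3 (-0.11, adjusted p = 0.0979). Both were called lower by DESeq2 (adjusted p = 0.0464 and 0.0493) and by edgeR with library totals alone (adjusted p = 0.0319 and 0.0485). ZNF317, ZNF561, ZNF562 and ZNF787 had log2 changes of 0.08, -0.05, 0.03 and 0.00, ZNF260 of -0.15, and the locus of ZNF8 and ZNF544 of -0.12, where RSL3 replicate 2 was at 203 CPM and replicate 3 at 239 CPM. That locus was called lower without RSL3 replicate 3 (-0.18, edgeR adjusted p = 0.028) and with the replicate number as a block (-0.13, adjusted p = 0.0441). ZNF274, which binds the 3′ ends of ZNF genes and recruits SETDB1 there, was at 23.5, 23.6 and 21.3 CPM with DMSO and 20.6, 22.4 and 23.9 CPM with RSL3 (-0.03, adjusted p = 0.886). ZNF224, a repressor of the aldolase A gene, had a change of 0.21, and the imprinted gene ZNF331 one of -0.05. ZNF175, known for repressing HIV transcription, was at 8.69, 8.13 and 9.39 CPM with DMSO and 12.3, 10.4 and 9.64 CPM with RSL3, all 3 above DMSO (0.30, adjusted p = 0.138). ZNF77 had the lowest fitted change of any member, -0.58, at 2.20 to 2.63 CPM with RSL3 and 2.84 to 4.06 CPM with DMSO. It was not called (edgeR adjusted p = 0.107). ZNF77 reached 1 FPKM in DMSO replicates 1 and 2 and R_F replicates 2 and 3, and in no RSL3 library. It thus passed the level filter only through the groups where it was higher.

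By position, 5 of the 8 loci lower with RSL3 lay in 1 stretch of the chromosome. The 192 ZNF loci were divided wherever neighbours lay more than 1 Mb apart, which gave 15 groups, numbered from the start of the chromosome. In the 7 groups with at least 5 member loci, the median log2 change with RSL3 was 0.03 in group 2 (7.1 to 9.8 Mb, 8 loci), -0.02 in group 3 (11.5 to 12.6 Mb, 7 loci), -0.32 in group 5 (19.7 to 24.1 Mb, 6 loci), -0.17 in group 8 (36.2 to 37.8 Mb, 8 loci), -0.12 in group 11 (43.5 to 45.1 Mb, 8 loci), 0.00 in group 14 (51.6 to 53.6 Mb, 9 loci) and -0.01 in group 15 (55.5 to 58.5 Mb, 22 loci). Group 5 held 5 of the 8 called loci among its 6, all 5 lower. Of all loci, 16.5% were called in either direction and 7.46% lower, and 11.2% of protein-coding loci were called lower. Group 15 held 2 of the 8 called loci and group 3 held 1. Groups were compared as a description without a test, and group 5 was singled out after its values were seen.

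Within group 5 the 5 called genes all lay between 21.1 and 24.1 Mb. ZNF101, at chr19:19668796-19683509, was at 17.0, 17.0 and 20.1 CPM with DMSO and 17.2, 19.1 and 15.2 CPM with RSL3, with overlap (log2 change -0.07, edgeR adjusted p = 0.778). The mean log2 level of the 6 loci relative to DMSO was -0.31, -0.27 and -0.33 in the RSL3 libraries and -0.13, -0.25 and -0.18 in the libraries with Fer-1. The libraries with Fer-1 lay above those with RSL3 alone and below those with DMSO (0.04, -0.00 and -0.04). Another 23 loci of group 5 below the level filter could be fitted without it: 0 were called by edgeR, and their median was -0.10 with 13 of 23 below 0. A row of ZNF56, which is not protein-coding in the table, was lower in the same stretch, at 8.73, 7.94 and 7.66 CPM with DMSO and 5.31, 5.00 and 4.48 CPM with RSL3 (-0.72, adjusted p = 0.00181). It stood at 7.08, 8.73 and 6.64 CPM with both compounds, above RSL3 alone (0.60, edgeR adjusted p = 0.0185). This row reached 1 FPKM in 4 libraries, all those with DMSO and R_F replicate 2, and in no RSL3 library. It thus entered the fit only through the groups where it was higher, so its changes depend in part on the level filter. LINC01224, a long noncoding RNA, had a change of -0.33 and was not called (adjusted p = 0.105), and RPSAP58, a ribosomal protein pseudogene, one of 0.02. A second ZNF56 row had a change of -0.54 and was not called (edgeR adjusted p = 0.607). Shorter untyped rows of ZNF254 ran from -1.15 to 0.41, none of them called. Of 35 untyped or non-coding chromosome 19 rows with a ZNF symbol, 1 was lower with RSL3 and 0 were higher. That share of 2.86% stands beside 16.5% of all loci called. ZNF56 and these neighbours were picked after their values were seen. With a gap of 0.5 Mb group 5 splits into pieces of fewer than 5 member loci, and with DMSO replicates 1 and 2 left out its median was -0.25.

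Among the 7 groups with at least 5 member loci, group 8 was the other one in which every member lay below 0, with no call. Its 8 loci ranged from -0.31 (ZNF566, edgeR adjusted p = 0.109) to -0.11 (ZNF146), with ZNF529 at -0.24 (adjusted p = 0.0973). The mean log2 level of the group was -0.21, -0.17 and -0.16 in the RSL3 libraries and -0.22, -0.13 and -0.19 in those with Fer-1, so the 2 treated groups overlapped, and both were below the DMSO libraries (-0.05, 0.08 and -0.03).

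**Figure D3:**
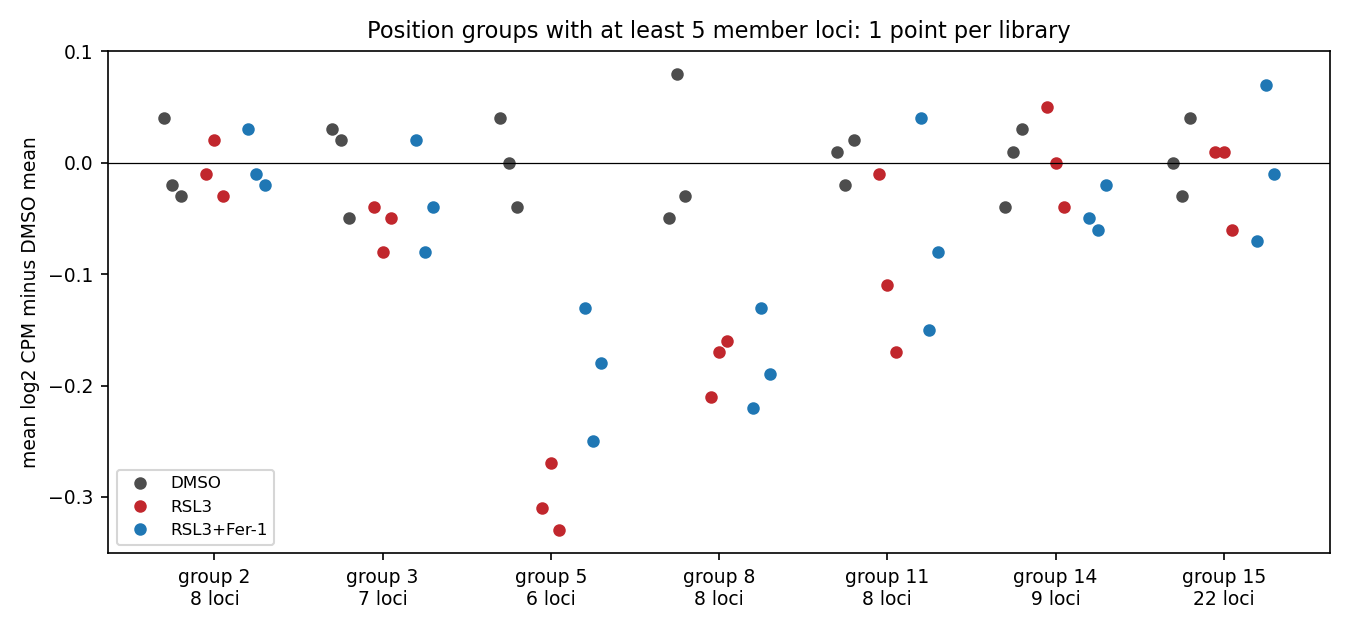
Mean log2 CPM minus the DMSO mean (y axis) over the member loci of each position group with at least 5 such loci (x axis); each point is 1 library. In group 5 the RSL3 points are at -0.33 to -0.27 and the points with Fer-1 at -0.25 to -0.13, whereas in groups 2, 14 and 15 all points lie between -0.07 and 0.07.

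Between RSL3 with Fer-1 and RSL3 alone, 1 member differed. ZNF45, a KRAB zinc finger gene at chr19:43912279-43935282, was at 14.6, 15.1 and 14.0 CPM with RSL3 and 19.3, 18.9 and 17.4 CPM with both compounds, without overlap. With DMSO it was at 15.2, 14.7 and 15.7 CPM, so the Fer-1 libraries were the 3 highest of the 9. The log2 change against RSL3 was 0.35 ± 0.10 (SE; edgeR adjusted p = 0.0381), and against DMSO it was 0.29 (adjusted p = 0.101). DESeq2 called the change against DMSO (adjusted p = 0.035). The edgeR call against RSL3 was lost without RSL3 replicate 1, 2 or 3 (0.35, 0.38 and 0.32) and without R_F replicate 1 or 2 (0.32 and 0.33), at adjusted p of 0.0649 to 0.148. It was also lost without the level filter (0.35, adjusted p = 0.0548) and without DMSO replicates 1 and 2 together (0.35, adjusted p = 0.0544). Of all loci, 6.46% were called in this comparison, 2.47% higher and 3.99% lower, and 9.42% of protein-coding loci. The members' count was 1 higher and 0 lower by edgeR. By DESeq2 it was 2 higher and 0 lower, beside 10.8% of 13268 loci called in either direction. At an unadjusted p under 0.05 in edgeR, 6 members were higher and 1 lower, beside 3030 of 17297 loci in either direction. Their median log2 change was 0.02, beside 0.00 over all loci. All 3 libraries with Fer-1 lay above all 3 with RSL3 for 8 member loci (10.8%) and below them for 0, beside 11.0% and 11.7% of all loci.

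With both compounds against DMSO, 1 member was lower, ZNF254, and 0 were higher, beside 6.69% of all loci called, 2.66% lower and 4.03% higher, and 10.3% of protein-coding loci. At an unadjusted p under 0.05 in edgeR, 7 member loci were lower and 2 higher, beside 3097 of 17297 loci in either direction. DESeq2 called 3 member loci lower and 1 higher, beside 11.8% of 12932 loci called in either direction. The median log2 change was -0.06 with 50 of 74 loci below 0, beside 0.00 over all loci tested and 0.04 over the other protein-coding loci of chromosome 19. All 3 libraries lay below DMSO for 10 member loci (13.5%) and above for 5 (6.76%). The shares below and above were 11.1% and 12.2% of all loci and 13.7% and 16.6% of protein-coding loci. For ZNF loci of other chromosomes they were 8.0% and 11.3%. Group 5 again had the lowest median of the 7 position groups, -0.19, followed by group 8 at -0.17. Without DMSO replicate 1 or R_F replicate 2, group 8 was the lowest, at -0.17 and -0.20. The 3 comparisons share libraries, so their values are set side by side and no overlap between them is read.

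Genes that act with KRAB proteins or in the same heterochromatin pathway were taken as a list of 28, of which 27 were tested. With RSL3, 5 fell and 1 rose (22.2% called), with a median log2 change of -0.04. This share lay between the 16.5% of all loci and the 24.9% of protein-coding loci called. From RSL3 to RSL3 with Fer-1, 3.7% of the 27 were called, beside 6.46% of all loci and 9.42% of protein-coding loci. TRIM28, the corepressor that KRAB domains recruit, itself lies on chromosome 19 beyond the last ZNF group, at chr19:58544064-58550722, in a locus with MIR6807. It was at 362, 357 and 348 CPM with DMSO, 302, 335 and 319 CPM with RSL3, and 342, 352 and 370 CPM with both compounds. The RSL3 libraries were the 3 lowest and the other two groups overlapped. The log2 change was -0.16 ± 0.04 with RSL3 (SE; edgeR adjusted p = 0.00456) and 0.15 ± 0.04 from RSL3 to the combination (adjusted p = 0.0121). The latter was lost without RSL3 replicate 1 or R_F replicate 3 (0.12 each, adjusted p of 0.111 and 0.121) and in both limma fits, and the former without DMSO replicates 1 and 2 together (-0.12, adjusted p = 0.236). SETDB1, the methyltransferase, was at 51.7, 47.2 and 41.9 CPM with DMSO and 40.5, 47.8 and 48.4 CPM with RSL3, with overlap (-0.04, adjusted p = 0.799).

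CBX3, an HP1 protein that binds methylated histone H3, was at 237, 265 and 248 CPM with DMSO and 219, 213 and 213 CPM with RSL3 (log2 change -0.22 ± 0.04 SE, edgeR adjusted p = 0.000315). TASOR, a subunit of the HUSH silencing complex, was at 276, 287 and 286 CPM with DMSO, 248, 236 and 263 CPM with RSL3 and 252, 254 and 260 CPM with both compounds (-0.19 ± 0.04 SE, adjusted p = 0.000979 for RSL3). These 2 calls held in each alternative fit, including that without DMSO replicates 1 and 2, in which the other 4 calls of the list were lost. SUV39H2, a histone methyltransferase, and ATRX, a chromatin remodeller, had changes of -0.17 and -0.13 (adjusted p = 0.0186 and 0.0125). SUV39H2 was lost without DMSO replicate 1 or RSL3 replicate 1 (-0.15 and -0.13), and ATRX without DMSO replicate 2 or RSL3 replicate 2 (-0.12 and -0.10). In limma on log2(FPKM + 1) and log2(FPKM + 0.1) neither was called, with adjusted p of 0.0511 and 0.0522 for SUV39H2 and of 0.112 and 0.113 for ATRX. RESF1, a partner of SETDB1 in retroelement silencing, rose from 37.8, 35.6 and 37.0 CPM to 45.8, 43.0 and 43.1 CPM (0.26 ± 0.07 SE, adjusted p = 0.0105), and was lost without DMSO replicate 2 or RSL3 replicate 1 (0.24 and 0.23, adjusted p of 0.0554 and 0.0568). With both compounds against DMSO, 3.7% of the 27 genes tested were called, beside 6.69% of all loci and 10.3% of protein-coding loci. TASOR was the 1 gene of the list called (-0.15, edgeR adjusted p = 0.0161). It was lost without DMSO replicate 2 or 3 and without R_F replicate 1 or 2, at adjusted p of up to 0.0827, in both limma fits and without DMSO replicates 1 and 2 together.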

How the data were processed

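RNA was measured in 9 A549 libraries, 3 per group, grouped by treatment per the labels. The deposited counts are whole numbers per locus and library, without scaling, per the file headers and the values; they are called estimated counts here, since the aligner, assembler and counter were not given in the sources used here. The deposited FPKM values were scaled by the authors for length and depth, per the file headers. The submitters' processing notes name cutadapt 1.9, FastQC and the build GRCh38. The labels give no strand information, so overlapping loci, antisense genes and near-identical paralogs can exchange reads, and a joined locus has 1 value.

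Unnamed loci (0.48 to 0.546% of counts) were left out. The fit took in every named locus that reached 1 FPKM in 3 or more libraries, run in R 4.3.3 with edgeR 4.0.16 (TMM factors 0.990 to 1.01, robust quasi-likelihood, 1 model of 3 groups), with Benjamini-Hochberg adjustment within a comparison and calls at an adjusted p under 0.05. The SE of a log2 change was derived from the F statistic. On simulated data the test recovered, for log2 changes of 0.3, 0.5 and 1, 26.9%, 47.8% and 66.7% for RSL3 against DMSO (17297 loci, 6% of calls false). These changes were put into 67, 67 and 66 loci drawn at random, a smaller share than the 16.5% called in the data. Recovery at that larger share, or for the members alone, was not measured. DESeq2 1.42.0, limma 3.58.1 on log2(FPKM + 1) and log2(FPKM + 0.1), other factors and filters, the replicate number as a block and leaving out libraries were alternatives. Leaving out DMSO replicates 1 and 2 together was chosen after seeing the data.

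Members, lists and position groups were chosen with earlier results of these data known. Named members were those called (up to 8 per direction), the 10 with the highest mean FPKM, and members of a short list with known roles; other names were chosen after their values were seen. The promoter stretches were derived after the calls were known. Of the 88 symbols, 80 have a promoter in the RefSeq table. Fingers and KRAB boxes were matched as patterns in the longest open reading frame of GENCODE 29 transcripts for all 88, since no protein table was used; the plan had named RefSeq tables for this.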

Additional observations from a re-analysis of the deposited data

How the results depend on the processing

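The count of 8 members called with RSL3 became 2 with an FPKM of at least 5 (3 member loci left). In that fit 36.0% of all loci were called. The count was 3 with limma on log2(FPKM + 1) and 3 with limma on log2(FPKM + 0.1), beside 11.9% and 11.8% of all loci. It was 2 in loci of a single gene, beside 14.7%, and 4 to 8 without 1 library. With DMSO replicates 1 and 2 both left out it was 0, the corepressor count 2, and the lowest position median -0.25; the counts of members in the other two comparisons were then 0 and 0, the corepressor count for R_F against DMSO was 0, and the lowest position median for it -0.13. The median with RSL3 of -0.07 became -0.09 with library totals and -0.11 with an FPKM of at least 5. The lowest position median, -0.32 in group 5, became -0.21 with limma on log2(FPKM + 1) and -0.34 to -0.27 without 1 library. In loci of a single gene and with a gap of 0.5 Mb, no part of group 5 held 5 member loci. The lowest position median then came from loci outside group 5. It was -0.17 in loci of a single gene (group 8) and -0.17 with the gap of 0.5 Mb. This measure was defined after the first fit was seen, and no position group kept 5 member loci with an FPKM of at least 5. For R_F against RSL3, 1 member became 0 without a filter, 0 with an FPKM of at least 5, 2 with DESeq2, and 0 to 1 without 1 library; the 1 corepressor became 0 with either limma fit and in loci of a single gene, and 0 to 2 without 1 library. For R_F against DMSO, 1 member became 3 with upper-quartile factors, 3 with library totals, 0 with an FPKM of at least 5, with either limma fit and in loci of a single gene, 2 with only the 2 groups compared, 4 with DESeq2, and 0 to 2 without 1 library. There the 1 corepressor became 0 with either limma fit and 0 to 1 without 1 library; the median of -0.06 became -0.09 with an FPKM of at least 5 and -0.02 in loci of a single gene; and the lowest position median of -0.19 became -0.13 with limma on log2(FPKM + 1). Fewer samples or loci enter the fits without libraries, with an FPKM of at least 5 and in loci of a single gene; for the other settings the cause was not tested. No named gene changed direction with a call: of 1680 values, 1530 kept their side, 77 lost a call, 18 gained one and 55 uncalled values moved.

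With the replicate number as a block, members called were 9 for RSL3 against DMSO, 0 for R_F against RSL3, where ZNF45 kept a change of 0.35 at an adjusted p of 0.0506, and 1 for R_F against DMSO. Same-numbered libraries deviated together with correlations of -0.05 to 0.066, so the numbers were not taken as pairs.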
